A study of Homo sapiens with 16 samples.

Results

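BCL11A binding was mapped in induced HUDEP-2 cells, an immortalised line of human erythroid progenitors, by chromatin immunoprecipitation and sequencing (ChIP-seq), a way to find where a protein sits on DNA. All regions of the deposited BCL11A list on standard chromosomes were taken, identical intervals were counted once, and regions were ranked by the score the authors gave them. This left 12911 regions out of 85461 in the 4 lists of the series. The list pools 2 ChIP and 2 control libraries of the 16 libraries in the series. All 4 libraries came from cells that carried BCL11A-ER-V5, a tagged BCL11A, and had received 4-hydroxytamoxifen at 1e-07 M for 24 h. The medium of the line held SCF, EPO, dexamethasone and doxycycline. The ChIP libraries used an antibody against the V5 tag, so the regions are those of the introduced fusion protein and not of the cells' own BCL11A as such. The control libraries are titled as input, whereas their antibody label names a control IgG. No uninduced culture belongs to the list.

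The list is named an optimal set by the irreproducible discovery rate (IDR), which retains regions ranked alike in the sets compared. Which sets these were was not given in the sources used here, so each region need not have been found in both libraries. The list holds 1 score per region over both replicates. No spread between replicates could therefore be computed, no test was made, and the read depth of the libraries is unknown. The scale of the score was not given in the sources used here, so scores are compared only with each other. Intervals in parentheses are exact 95% Clopper-Pearson intervals. They cover counting error only, since the regions of a list are not replicates.

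BCL11A is a zinc-finger protein that represses transcription and is known above all for silencing the fetal γ-globin genes in adult erythroid cells. It recruits corepressors such as the NuRD complex, which removes histone acetylation and remodels nucleosomes. Its zinc fingers recognise the letters TGACCA, which occur in the promoters of both γ-globin genes. GATA1, its cofactor FOG1 (encoded by ZFPM1) and NFE2 are among the factors that activate erythroid genes.

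Promoter sequences are shown because the BCL11A letters can be read in them directly. The RefSeq promoter table (GRCh38.p14) gives 300 bases per gene, from 250 before to 50 after the start site. The 5 windows printed hold TGACCA on either strand, and their region midpoint lay in the window. They ranked best among the windows considered for printing. That choice did not draw on every chromosome, so a better-ranked window may exist elsewhere. EPOR encodes the erythropoietin receptor, FZD5 a Wnt receptor, CD55 a complement inhibitor of the red cell surface and RILP a lysosomal protein, and NHLRC3 completes the set. Each is printed 5′ to 3′ on the strand of its gene up to the start site, or up to the end of the match, with the match in capitals (TGACCA, or TGGTCA where it lies on the opposite strand).

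EPOR: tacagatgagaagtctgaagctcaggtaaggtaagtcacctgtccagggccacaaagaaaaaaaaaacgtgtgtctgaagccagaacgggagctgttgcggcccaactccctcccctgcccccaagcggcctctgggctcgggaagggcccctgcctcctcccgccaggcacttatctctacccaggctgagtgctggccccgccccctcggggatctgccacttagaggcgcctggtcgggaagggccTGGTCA
FZD5: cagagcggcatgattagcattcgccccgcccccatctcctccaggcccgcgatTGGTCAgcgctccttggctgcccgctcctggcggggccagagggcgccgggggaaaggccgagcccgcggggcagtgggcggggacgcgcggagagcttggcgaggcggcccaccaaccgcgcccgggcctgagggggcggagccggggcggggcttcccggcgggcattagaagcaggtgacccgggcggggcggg
CD55: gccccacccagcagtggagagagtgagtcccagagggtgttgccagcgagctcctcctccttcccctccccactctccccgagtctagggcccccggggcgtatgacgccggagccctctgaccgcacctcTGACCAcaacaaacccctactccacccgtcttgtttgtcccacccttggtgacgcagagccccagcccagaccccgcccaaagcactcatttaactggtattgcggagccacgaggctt
RILP: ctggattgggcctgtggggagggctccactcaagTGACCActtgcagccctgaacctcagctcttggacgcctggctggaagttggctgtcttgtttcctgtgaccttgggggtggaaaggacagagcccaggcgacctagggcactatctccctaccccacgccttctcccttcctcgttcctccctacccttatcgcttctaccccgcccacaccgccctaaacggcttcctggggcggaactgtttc
NHLRC3: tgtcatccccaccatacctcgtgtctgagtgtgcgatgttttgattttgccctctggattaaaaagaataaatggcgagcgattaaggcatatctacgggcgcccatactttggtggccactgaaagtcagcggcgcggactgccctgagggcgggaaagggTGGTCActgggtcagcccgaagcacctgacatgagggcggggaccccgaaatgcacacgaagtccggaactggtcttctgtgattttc

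The EPOR sequence is chr19:11384310-11384564 (minus strand), and its region had rank 22 and a score of 951. The FZD5 sequence is chr2:207769907-207770156 (minus strand), under a region of rank 165 with a score of 347. The CD55 sequence is chr1:207321428-207321677 (plus strand), with a region of rank 176 and a score of 332. The RILP sequence is chr17:1649867-1650116 (minus strand), at rank 179 and a score of 329. The NHLRC3 sequence is chr13:39038206-39038455 (plus strand), at rank 197 and a score of 312. All 5 hold a single match, which lies inside the region. It began 1 base before the start site in EPOR, 88 bases before it in NHLRC3, 119 in CD55, 197 in FZD5 and 216 in RILP.

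Across all 22198 promoter windows of the table, 9.32% (8.94 to 9.71%) held TGACCA on either strand. Among the 2064 windows that contained the midpoint of a BCL11A region the share was 11.7% (10.3 to 13.1%). It was 16.3% (11.2 to 22.6%), or 29 of 178, for regions of rank 1 to 1000, 12.7% (10.3 to 15.3%) for the next 4000 regions and 10.4% (8.67 to 12.3%) for the rest. Most windows with a strong region thus lacked these letters, and no match says only that they are not in the window. Windows with a region were richer in G and C, with a median GC content of 69.7% against 62.3% for all windows.

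GC content bears on how often any letters occur, so the shares were also set side by side within bands of GC content, bands that were added once the data had been seen. In windows of 50 to 60% GC, 22.7% (17.4 to 28.8%) of those with a region held TGACCA, against 13.6% of all windows. At 60 to 70% GC the shares were 13.2% (10.9 to 15.8%) and 8.75%, and at 70 to 100% GC they were 7.57% (6.03 to 9.36%) and 3.73%. Below 50% GC only 27 windows had a region, and 9 of them (33.3%, 16.5 to 54.0%) held the letters, against 12.7% of all. Within each of the 4 bands the share was higher in windows with a region than in all windows.

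Other motifs were searched in the same windows, each on both strands and each on its own, so that matches of different motifs could overlap. CCGGAAG, the core read by ETS factors, was in 23.8% (22.01 to 25.7%) of windows with a region and in 12.8% of all windows. GGGCGG, the GC box of SP factors, was in 81.6% (79.8 to 83.2%) and 56.3%. The GC box shares were 77.6% (74.6 to 80.5%) and 69.4% at 60 to 70% GC. At 70 to 100% GC they were 94.1% and 93.7%, whereas the ETS shares were 21.4% (18.9 to 24.0%) and 13.7%. AGATAA, the core of GATA factors, was in 4.60% (3.74 to 5.60%) of windows with a region and 7.91% of all, but the order turned in each of the 4 bands of GC content. The shares were 33.3% (16.5 to 54.0%) and 22.1% below 50% GC, and 16.4% (11.7 to 21.9%) and 9.98% at 50 to 60%. They were 4.32% (3.01 to 5.98%) and 3.38% at 60 to 70%, and 1.55% (0.890 to 2.51%) and 1.06% above, so the share of all windows lay outside the interval at 50 to 60% GC alone. CAGATG, an E-box of TAL1, was in 7.27% (6.18 to 8.47%) and 12.2%, and within each band the share of all windows lay inside the interval of windows with a region.

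For the remaining motifs, too, the share of windows with a region is given before that of all windows. CACGTG, the E-box of MYC and USF, was in 11.1% and 8.34%, and TGCGCA, part of the site of NRF1, was in 12.4% and 9.88%. TGACGTCA, the site of CREB and ATF factors, was in 2.96% and 2.26%, and CCACACCC, read by KLF factors, in 3.78% and 3.41%. CCAAT, read by NFY, was in 31.7% and 34.7%. TGACTCA, close to the sites of AP-1 and NFE2, was in 3.15% and 4.01%, and TGTGGTT, the RUNX core, in 2.18% and 3.69%. Within the bands of GC content the shares of these 7 motifs in all windows lay inside the interval of windows with a region, with 2 exceptions at 70 to 100% GC. These were TGACTCA, with 2.72% (1.81 to 3.91%) and 1.71%, and CCAAT, with 26.9% (24.2 to 29.7%) and 23.7%. For the RUNX core the order turned in the 3 bands below 70% GC, with 6.82% (3.87 to 10.996%) and 5.44% at 50 to 60%.

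Scores were very uneven along the list. They ran from 12.8 to 2348 with a median of 29.4 and quartiles of 19.5 and 52.4, so the highest was 80.0 times the median. The strongest decile, 1291 regions with scores of 98.5 or more, held 42.1% of the summed score. The score was 437 at rank 100, 117 at rank 1000 and 36.6 at rank 5000. Regions covered 4.20 Mb after overlapping ones were merged, and 1895 of them overlapped another, so that merging left 11954.

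Width differed along the list. Regions were 92 to 1104 bp wide, and 9339 of the 12911 had a width of exactly 370 bp. None of the 100 strongest had that width, and their median was 553 bp. The share of 370 bp regions was 1% in the next 900, 40.5% in the 4000 after them and 97.5% in the rest. How the width was set was not given in the sources used here, and its part in the classes below was not tested.

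Each region was put in 1 class by its midpoint. A promoter region lay within 1 kb of the start of a protein-coding transcript, a gene body region lay inside such a transcript, and a distal region in neither. Promoter regions numbered 5442 (42.2%, 41.3 to 43.0%), gene body regions 4042 (31.3%, 30.5 to 32.1%) and distal regions 3427 (26.5%, 25.8 to 27.3%). Their median scores were close, at 29.7, 29.1 and 28.8. The highest scores were 1845 for promoters, 2348 for gene bodies and 1474 for distal regions.

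The 3 classes were mixed differently at the top of the list. Among the 100 strongest regions 41 lay in gene bodies (41.0%, 31.3 to 51.3%), 30 at promoters (21.2 to 39.98%) and 29 were distal. Promoters made up 37.1% (33.9 to 40.4%) of the next 900 regions, 43.9% (42.4 to 45.5%) of the 4000 after them and 42.0% (40.9 to 43.1%) of the rest. By deciles of the rank, the promoter share was 37.5% (34.8 to 40.2%) in the strongest, highest in the third at 46.9% (44.2 to 49.7%), and 38.9% (36.3 to 41.7%) in the weakest. The strongest and the weakest decile had overlapping intervals, and the promoter share was lower at both ends of the list than in the third decile.

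**Figure D1:**
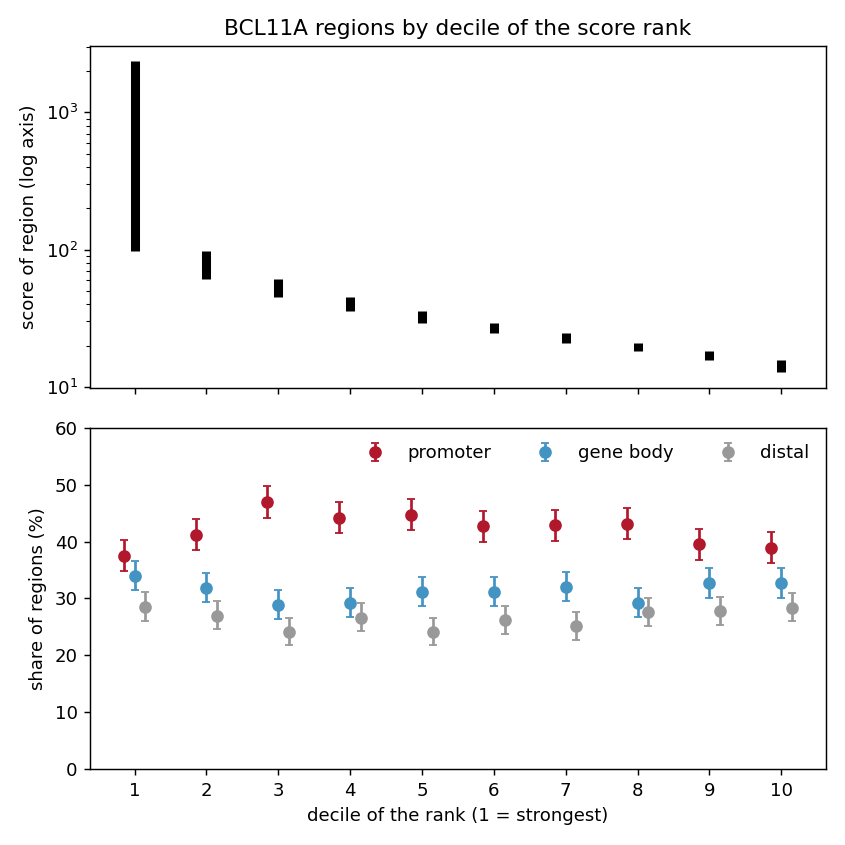
Upper panel, lowest to highest score (log axis) in each decile of the BCL11A list, from the strongest (1) to the weakest (10); lower panel, share of promoter, gene body and distal regions (%) in each decile with 95% Clopper-Pearson intervals. The promoter share was 37.5% in the strongest decile, 46.9% in the third and 38.9% in the weakest.

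The 20 strongest regions included genes of erythroid and platelet biology beside genes of other functions. The strongest of all (score 2348, chr16:88491496-88492245, hg38) lay in an intron of ZFPM1, 38.3 kb from its start. UBE2O, which encodes a ubiquitin-conjugating enzyme that clears ribosomes from maturing red cells, held rank 4 in its first intron (score 1482). CTIF, a translation factor gene, held rank 15 (score 1099), and RREB1, a zinc-finger gene, held rank 18 (score 1084) in its first intron. SH3GL1, which encodes an endophilin, held rank 19 in its first intron (score 1083), and at 1104 bp that region was the widest of the list.

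Promoters among the 20 were those of DIP2A (rank 2), SPRYD7 (rank 7), ACYP1 with ZC2HC1C (rank 8), C11orf21 (rank 9), NFE2 (rank 10), FADS2 (rank 12) and GP1BB (rank 16). The C11orf21 region also fell to TSPAN32, a tetraspanin gene expressed in blood cells, and the FADS2 region to FADS1, both fatty acid desaturase genes. GP1BB encodes a platelet glycoprotein, and its region, with a score of 1093, lay 82 bp upstream of the start.

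Of the 20 regions, 7 were distal. The distal region of rank 5 (score 1474) lay 4.48 kb upstream of MGAT3, a glycosyltransferase gene. That of rank 6 (score 1473, chr16:85381925-85382526, hg38) lay 229 kb upstream of GSE1, its nearest start. Rank 11 (score 1206) lay 8.11 kb downstream of a CYB561 start, and rank 13 (score 1162) lay 15.3 kb upstream of NDEL1. Rank 14 (score 1143) lay 84.2 kb from CDC5L, a splicing factor gene, and rank 20 (score 1036) lay 12.6 kb upstream of TNIP1. Rank 17 (score 1092, chr3:128415754-128416387, hg38) had DNAJB8 as its nearest start, at 51.2 kb, and lay 71.9 kb downstream of a start of GATA2, the gene of an early progenitor factor. Nearness does not show which gene a distal region acts on.

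Promoter regions gathered close to the start site, slightly on its downstream side. The median midpoint lay 59 bp downstream, with quartiles of -131 and 280 bp, and 39.9% (38.6 to 41.3%) of midpoints were upstream. In 56.2% (54.9 to 57.6%) the midpoint lay within 250 bp of the start, and 42.8% (41.4 to 44.1%) of intervals spanned it. The 364 promoter regions of rank 1 to 1000 were closer, with a median of 13 bp, 68.4% (63.4 to 73.2%) within 250 bp and 57.4% (52.2 to 62.6%) over the start. In the 503 of the weakest decile these shares were 51.1% (46.6 to 55.5%) and 41.9% (37.6 to 46.4%). The median width was 360 bp over all regions of rank 1 to 1000 and 370 bp over the weakest decile. Starts of 2 or more genes lay within 1 kb of 597 regions.

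**Figure D2:**
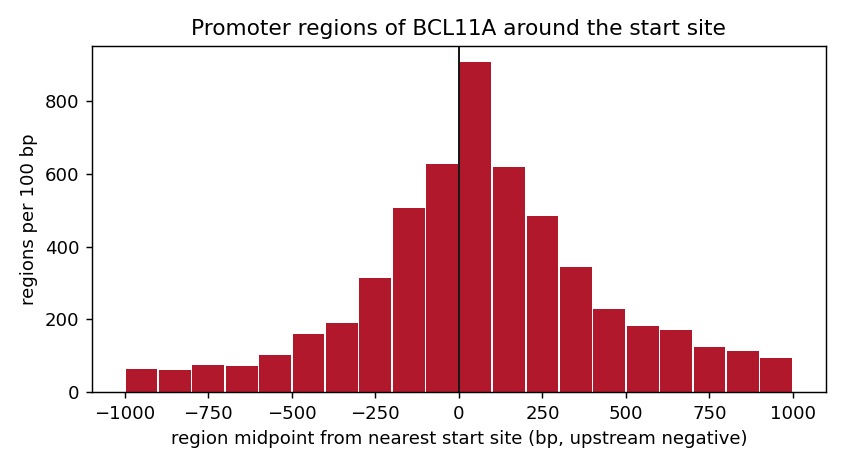
Number of BCL11A promoter regions (vertical axis, per 100 bp) by distance of the region midpoint from the nearest start site (horizontal axis, bp, upstream negative). The tallest bar, 906 regions, lies from 0 to 100 bp downstream.

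Distal regions were mostly more than 5 kb from a gene start. The median distance was 24.5 kb, with 16.2% (15.0 to 17.5%) at 1 to 5 kb, 51.5% (49.8 to 53.2%) at 5 to 50 kb, 28.6% (27.1 to 30.1%) at 50 to 500 kb and 3.68% (3.07 to 4.36%) beyond. The 293 distal regions of rank 1 to 1000 had a median of 26.2 kb and the 367 of the weakest decile one of 34.1 kb. Beyond 500 kb lay 2.39% (0.966 to 4.86%) of the former and 8.17% (5.58 to 11.5%) of the latter. The start of a long noncoding RNA lay within 1 kb of 6.86% (6.03 to 7.76%) of distal and 2.23% (1.79 to 2.73%) of gene body regions.

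Gene body regions were set against the length of each gene feature, outside chromosome 11 and over the longest transcript of each gene. The length left out 1 kb on each side of the start of that transcript only. The regions, by their class, left out 1 kb around every protein-coding start. Where features of different genes overlapped, a midpoint was counted in the exon before the intron, whereas both lengths were kept. Densities are therefore approximate. Of 3781 regions, 34.2% (32.7 to 35.7%) lay in the first intron, which makes up 23.1% of this length, or 5.03 regions per Mb. Other introns held 52.2% (50.5 to 53.8%) on 72.0% of the length, or 2.46 per Mb. Coding exons held 8.97% (8.07 to 9.92%) on 2.51% of the length, or 12.1 per Mb. The untranslated parts held 21 regions at the 5′ end (23.7 per Mb) and 155 at the 3′ end (5.99 per Mb). Density was thus higher in exons than in introns, but the 318 such regions of rank 1 to 1000 lay in coding exons in 4.40% and in the first intron in 39.6%. The feature was set by the midpoint alone, and an interval centred in an exon can reach into introns.

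Genes were then ranked by how many regions they held, counting midpoints inside the gene or within 1 kb upstream of a start. Overlapping regions were counted separately here and in the clusters below. Of 19355 protein-coding genes, 6307 (32.6%) had at least 1 region, 2335 had 2 or more, and 184 (0.951%) had 5 or more. A promoter region was found for 4709 (24.3%). Gene length moved with the count: genes with 5 or more regions had a median length of 91.8 kb, against 23.4 kb for all genes. Genes of over 100 kb reached 5 regions in 2.84% of cases and genes under 10 kb in 0.0709%, whereas density was 0.0313 and 0.680 regions per 10 kb. The count took in 1 kb upstream of each start and the length did not, which raises the density of short genes most.

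ZFPM1, the FOG1 gene, led with 19 regions, or 2.33 per 10 kb of its 81.6 kb, and all 19 were gene body regions. Their scores ran from 18.9 to 2348 with a median of 31.7. The first intron held 7 of them, other introns 11 and a coding exon 1. The second strongest (score 460, rank 88, chr16:88497652-88498283, hg38) lay within 10 kb of the strongest, and the third (score 103, rank 1213) lay in the first intron. The other 16 scored from 18.9 to 91.8, so the leading place of ZFPM1 by count rests mostly on regions of middle and low score. With the stronger 50% of the list, IQSEC1 led with 14 regions.

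**Figure D3:**
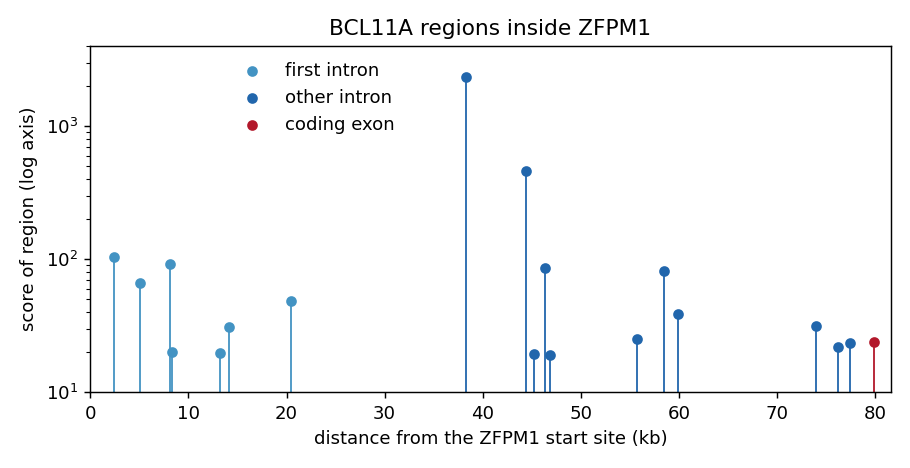
Score (vertical log axis) of each of the 19 BCL11A regions in ZFPM1 by distance from the ZFPM1 start site (horizontal axis, kb), coloured by the gene feature at the midpoint. The region with a score of 2348 lies 38.3 kb from the start, and the next, with 460, lies downstream of it.

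IQSEC1, which encodes an exchange factor for ARF6, held 17 regions over 176 kb, with scores from 23.01 to 301. PLEC, the plectin gene, held 14 over 61.6 kb, 7 of them promoter regions, and its best score was 57.4. NFIX, which encodes a nuclear factor I protein, held 13, up to 344. FAM53B and TNS3, a tensin gene, held 12 each, up to 153 and 137. PLEC thus had many regions and no strong one, since its best stood at rank 2869. With overlapping regions merged, IQSEC1 held 14 and PLEC 11.

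A further 8 genes held 10 regions each. ARID3A, a DNA-binding protein gene, reached 510 (rank 71), ASAP1, a GTPase-activating protein gene of ARF proteins, 481 (rank 77), and FAM129B 428 (rank 107). KSR1, a scaffold of the RAF and MEK kinases, reached 142, ELL, an elongation factor gene, 121, and NFATC1 117. VPS13B reached 73.9 and LTBP4, which encodes a binding protein of latent TGF-β, 56.6. Density differed widely in this group, from 2.73 per 10 kb in LTBP4, of 36.7 kb, to 0.116 in VPS13B, of 864 kb.

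The last 6 of the 20 genes held 9 regions each. GSE1, which encodes a coiled-coil protein of a corepressor complex, reached 861 (rank 27) in its gene body. ANK1, the ankyrin gene that ties the red cell skeleton to the membrane, reached 650 (rank 45), and its median score of 65.2 was the highest of the 20 genes. REXO1 reached 458 with a median of 59.2. RXRA, a nuclear receptor gene, reached 263, ST3GAL1, a sialyltransferase gene, 216, and NOL4L 196. In 20 of the 20 genes the strongest region lay in the gene body rather than at a promoter. These genes were picked by their number of regions, and most of their regions were gene body regions (in IQSEC1, 15 of 17). The count therefore does not describe genes with a region in general.

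Regions were chained into clusters wherever the gap from edge to edge was at most 0.0125 Mb. This gave 8268 chains, of which 5649 were single regions (43.8% of the list). There were 247 clusters of 5 or more, with 1628 regions (12.6%), and 20 of 10 or more. Within clusters of 5 or more, 32.5% (30.2 to 34.8%) of regions were at promoters, against 43.5% (42.6 to 44.5%) of the others. Gene body regions made up 40.4% (38.0 to 42.8%), against 3385 of the 11283 others (29.2 to 30.9%), and distal shares were 27.1 and 26.5%. Clustered regions had a median score of 30.7 and the others one of 29.2. No promoter region was present in 52 of the 247 clusters and no protein-coding gene in 24, while 21 held a region of rank 1 to 100.

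The cluster with most regions held 22 over 71.9 kb (chr19:1203400-1275325, hg38), across ATP5D, C19orf24, CBARP, CIRBP, MIDN and STK11. STK11 encodes the kinase LKB1, CIRBP a cold-induced RNA-binding protein and ATP5D a subunit of ATP synthase. Its best region scored 211 (rank 399). The next, with 21 regions over 49.4 kb (chr19:1827196-1876564), spanned KLF16 and REXO1, and its summed score was 1707. The third, with 20 over 63.1 kb (chr16:627562-690622), held 13 promoter and 7 gene body regions of 10 genes: JMJD8, MCRIP2, METTL26, RAB40C, RHBDL1, RHOT2, STUB1, WDR24, WDR90 and WFIKKN1. Its best score was only 75.5. None of these 3 clusters contains a region of the 50 strongest.

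Another cluster on the same chromosome held 15 regions over 22.9 kb around JUNB, an AP-1 factor gene, and PRDX2, the gene of a peroxiredoxin abundant in red cells (chr19:12779213-12802145), and 11 of them were distal. With 13 regions over 41.5 kb, the next covered APRT, CDT1 and PIEZO1, the gene of a mechanosensitive channel of the red cell (chr16:88771130-88812583). A cluster of 12 distal regions with no protein-coding gene lay at chr19:13839054-13862516, singled out after its values were seen, with a best score of 153.

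By summed score the order was different. The 8 regions in the middle of ZFPM1 (chr16:88491496-88513650) summed to 3078, the 2 at DIP2A to 1980 and the 8 at MGAT3 to 1815. A cluster of 8 distal regions without a protein-coding gene (chr16:85370227-85390996), which contains the region of rank 6, summed to 1739. The cluster of KLF16 and REXO1 came next and was the only one among the 5 highest in both orders. In the other 4, a single region of rank 1 to 6 made up most of the sum.

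Gene lists showed which functional groups held regions, beside the 24.3% of all protein-coding genes with a promoter region and the 32.6% with any region. Of 25 erythroid transcription factor genes, 16 (64.0%, 42.5 to 82.0%) had a promoter region and 23 any region. After ZFPM1, NFE2 scored 1270 (rank 10), FOXO3, which encodes a forkhead factor of red cell maturation, 395 (rank 121), GATA2 315 (rank 193) and LYL1 245 (rank 285). GATA1, the master factor of the lineage, scored 113 at its promoter (rank 1053). KLF13 held 8 regions, all of low to middle score, with a best of 54.3. BCL11A itself had 2 regions, with a best score of 61.0 in its gene body and rank 3995 at its promoter.

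Genes of heme and iron had promoter regions in 20 of 27 cases (74.1%, 53.7 to 88.9%) and any region in 25. FECH, which encodes ferrochelatase, the enzyme that inserts iron into heme, scored 387 (rank 127). UROS, the gene of an earlier step of heme synthesis, scored 97.4 in the gene body. SLC25A38 and SLC25A37, mitochondrial carriers of glycine and iron, held 5 regions each, or 3 and 5 once overlapping regions were merged. Only 1 of the 27 genes had a region of rank 1 to 1000, so the regions of this group were frequent and mostly of middle or low score.

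Red cell membrane genes had promoter regions in 16 of 31 cases (51.6%, 33.1 to 69.8%) and any region in 23, and 9 had a region of rank 1 to 1000. After ANK1, DMTN, the dematin gene, scored 461 (rank 87) and GYPC, the glycophorin C gene, 271 (rank 247), each in the gene body. GYPE and GYPB had promoter regions with scores of 258 and 143. These genes belong to a family of near-identical sequences, so their reads cannot be assigned to a copy with certainty. PIEZO1 held 6 regions, up to 73.9.

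Genes of cytokine receptors and JAK-STAT signalling had promoter regions in 11 of 23 cases (47.8%, 26.8 to 69.4%) and any region in 17. EPOR held 4 regions and led with 951 (rank 22), LYN, a kinase downstream of it, held 4 and scored 236, and SH2B3, an inhibitor of the pathway, scored 73.3. JAK2 had 3 regions, the best of score 20.1. Corepressor and chromatin remodelling genes, which encode partners of BCL11A among others, had promoter regions in 15 of 28 cases (53.6%, 33.9 to 72.5%) and any in 18. MTA1 scored 314 in its gene body, DNMT1 scored 166 at its promoter, and GATAD2A held 6 regions.

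Cell cycle genes had promoter regions in 13 of 24 cases (54.2%, 32.8 to 74.4%). MXD1, an antagonist of MYC, scored 220, CCND1 184 with 4 regions and CCND3, a D-type cyclin gene with a role in erythroid divisions, 172 with 6. Autophagy and terminal maturation genes had promoter regions in 6 of 18 cases (33.3%, 13.3 to 59.0%) and any in 11. After UBE2O, with 6 regions, SQSTM1, an autophagy receptor gene, scored 181 with 5 regions and RIOK3 134. Of the 24 cytosolic ribosomal protein genes listed, which are not the full set, 8 had promoter regions (33.3%, 15.6 to 55.3%). Among them were RPL18 with 124 and RPL3 with 38.7, and RPS19 held 3 regions, the best of score 13.8. RPL13A, a gene of this kind outside the list, had a promoter region with a score of 444 (rank 95). For these last 2 lists the interval includes the 24.3% of all genes.

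Globin genes had promoter regions in 6 of 10 cases (26.2 to 87.8%): HBZ, HBG2, HBM, HBG1, HBA2 and HBQ1. The HBQ1 region, with a score of 16.5 and rank 11170, had its midpoint 952 bp downstream of the start and past the end of this short gene, so it is not counted among the regions of the gene. The best scores at the genes themselves were 75.5 at HBZ, 60.3 in the gene body of HBB and 49.5 at HBG2, and none reached the 1000 strongest. Stronger distal regions lay near both groups of globin genes. The region of rank 460 (score 192, chr11:5280691-5281004, hg38) lay upstream of HBE1. The region of rank 550 (score 174, chr16:143034-143368, hg38) lay upstream of HBZ. HBG1 scored 20.9, HBM 26.6 and HBA2 13.4, while HBA1, HBD, HBE1 and HBB had no promoter region. HBG1 and HBG2, and HBA1 and HBA2, are near-identical pairs whose reads are uncertain between copies.

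Lists of marker genes of other cell types were read in the same way. Megakaryocyte markers had promoter regions in 3 of 14 cases (21.4%, 4.66 to 50.8%), namely GP1BB, TUBB1 with a score of 217 and ITGB3 with 26.9. Myeloid markers had them in 2 of 15 (AZU1 and SPI1), with a best score of 62.7 at AZU1 and 49.5 in the gene body of PRTN3. Lymphoid markers had them in 1 of 18 (RAG1, 21.5), and hepatocyte and neuron markers in 1 of 16 (SYP, with rank 10688 at its promoter). In gene bodies, SYP scored 82.5 (rank 1716), GAD1 26.0 and GRIN1 19.0. The interval of the promoter share includes the 24.3% of all genes for each of these 4 lists, so fewer promoter regions than among all genes were not shown. Any region was found for 4 of 14 megakaryocyte, 3 of 15 myeloid, 1 of 18 lymphoid and 3 of 16 hepatocyte and neuron markers. All 4 shares lay below the 32.6% of all genes with any region. For the lymphoid list, with 1 of 18 on both measures, the interval (0.141 to 27.3%) leaves out that 32.6%. A list of bound regions does not show whether a gene was expressed.

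Small RNA genes also held regions, counted within 500 bp. Among tRNA genes 54 of 443 (12.2%, 9.29 to 15.6%) had one, and for 43 of the 54 no such region was of the promoter class. Among snRNA genes 18 of 154 (11.7%, 7.08 to 17.8%) had one, among miRNA genes 60 of 1913 (3.14%, 2.40 to 4.02%) and among snoRNA genes 10 of 1199 (0.834%, 0.401 to 1.53%). No such region was of the promoter class for 15 of the 18 snRNA, 21 of the 60 miRNA and 7 of the 10 snoRNA genes. Pseudogenes had one in 0.668% and long noncoding RNA genes in 9.82%. Median lengths were 73 bp for tRNA genes, 659 bp for pseudogenes and 9038 bp for long noncoding RNA genes. The shares were not adjusted for length. None of 49 rRNA genes had one, which allows up to 7.25%. The tRNA and snRNA genes have many near-identical copies, so reads at them are uncertain between copies.

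Of 1562 miRNA hairpins in the RefSeq table, 79 (5.06%) had a region within 1 kb, 30 were overlapped by one, and 8 had a region of rank 1 to 1000. For 33 of the 79 the best region was outside the promoter class. MIR1908 was overlapped by the FADS1 and FADS2 region of rank 12. MIR144 and MIR4732 lie side by side, and the region of rank 592 (score 167, chr17:28860437-28860727, hg38) lay 1036 bp downstream of the MIR144 start. miR-144 is abundant in erythroid cells. The mature sequences of these 3 hairpins (RefSeq, GRCh38.p14) follow, 5′ to 3′, with the seed, bases 2 to 8, in capitals, to show that they share no seed.

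hsa-miR-144-3p: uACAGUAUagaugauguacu
hsa-miR-144-5p: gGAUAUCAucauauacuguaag
hsa-miR-4732-3p: gCCCUGACcuguccuguucug
hsa-miR-4732-5p: uGUAGAGCagggagcaggaagcu
hsa-miR-1908-5p: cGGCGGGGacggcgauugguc
hsa-miR-1908-3p: cCGGCCGCcggcuccgccccg

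The 8 hairpins gave 13 mature miRNAs with 13 distinct seeds.

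Regions were spread unevenly over chromosomes. Chromosome 8 held 110 regions per 100 protein-coding genes, chromosome 22 held 100.7 and chromosome 19 held 86.5, whereas chromosome X held 20.2. On chromosome X 7.89% of genes had a promoter region, and on chromosome 22 33.7% did. Chromosome 8 also had the lowest median score, 24.2, and a promoter share of 37.2%. Chromosome 19 held 129 of the 1000 strongest regions and 57 of the 247 clusters of 5 or more, and chromosome 16 held 25 clusters. The number of copies of each chromosome in this line was not given in the sources used here, and its part in these counts was not tested.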

How the data were processed

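The submitters' processing notes name Trimmomatic 0.3.2, Bowtie2 2.2.9, Bowtie, Picard and bedtools as tools and GRCh38 or hg38 as the genome build, without saying what each did. The peak caller was not given in the sources used here. The authors deposited 1 score per region over the pooled replicates, and the deposited coordinates were made 1-based. Of 13020 lines, 18 on other sequences and 91 repeated intervals were left out. Read depth is unknown, so precision beyond counting error cannot be stated.

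Gene models came from the annotation the authors deposited (protein-coding NM transcripts), and for chromosome 11 from the RefSeq gene table (GRCh38.p14, 1286 of 1301 genes given a strand), since the deposited chromosome 11 is a modified one. In the deposited annotation 25 gene symbols are written as dates. Promoter and miRNA sequences came from the RefSeq tables of the same build. HBG1, HBG2 and NFE2 have no promoter entry.

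Classes, clusters and counts were computed in Python 3.11.15 with pandas 2.3.3, and the classes and clusters were tested on simulated regions. Named genes were those of the 20 strongest regions, the 20 genes with most regions, the 5 clusters with most regions and the 5 with the highest sum, the 3 best-ranked and the 2 with most regions of each list, all globin genes and BCL11A; a few further genes of the lists are named beside them. Some genes that this rule names are not reported here. Other settings tried were the promoter window, the cluster gap, the stronger 50% by score, merging, noncoding transcripts, leaving out chromosome 11, and bands of GC content. The members and the gene lists were chosen with earlier results of these data known.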

Additional observations from a re-analysis of the deposited data

How the results depend on the processing

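Of 56 alternatives to the values above, 30 stayed within the interval or within 1.5 times the count and 26 moved. A promoter window of 500 bp or of 5 kb gave promoter shares of 33.9 and 55.1%, gene body shares of 37.1 and 22.7% and distal shares of 28.9 and 22.2%. With those windows the promoter share was 31.8 and 48.6% for the 1000 strongest regions, 32.9 and 49.4% for the strongest decile, and 29.6 and 51.4% for the weakest. Counting any overlap of the interval gave a promoter share of 43.4%, and merging overlapping regions gave 41.0%. Merging also left 139 genes with 5 or more regions, 18 regions in ZFPM1, 193 clusters of 5 or more and 20 regions in the largest cluster. With noncoding transcripts added, the shares were 44.5% promoter, 32.8% gene body and 22.6% distal, and PVT1, a noncoding gene, held most regions, 26. With the stronger 50% by score, 2671 genes had a promoter region, 38 genes had 5 or more regions, 50 clusters had 5 or more, 69 of the listed genes (118 with the full list) had a promoter region, and 13.5% of promoter windows with a region held the BCL11A letters. Cluster gaps of 5 and 25 kb gave 113 and 389 clusters of 5 or more, and 13 and 37 regions in the largest. No paired analysis was possible because the list pools both replicates and gives no value per replicate, and for the same reason no replicate could be left out. The unknown depth limits what the absence of a region can show, and the score cut of the list was not varied below its own end. All regions come from a tagged protein in 1 cell line after 1 induction.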
